A study of Mus musculus with 6 samples.

Results

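The SMAD proteins and the TGF-beta receptors Tgfbr1 and Tgfbr2 were followed in a mouse pre-B cell line with forced or blocked miR-26. Every probe that the array design assigns to Smad1, Smad2, Smad3, Smad4, Smad5, Smad6, Smad7, Tgfbr1 or Tgfbr2 was taken, and each probe was read on its own. This gave 9 of the 34797 gene names on the array and 18 of its 55681 probes. Of these 18 probes, 10 were bright enough to be tested, and they cover 7 of the genes. Smad1 and Smad6 have no tested probe.

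The study asked what aberrant expression or sequestration of miR-26 does to the transcriptome of B cell precursors. All cells came from the pre-B cell line 1676, which carries the genotype SLP-65-/- LAT-/- and therefore lacks a pair of adaptor proteins of the pre-B cell receptor pathway, the controls included. All were kept in excess IL-7, the growth factor that holds them at the pre-B cell stage, and were selected with puromycin for a retroviral vector. Each of 3 groups has 2 arrays: an empty vector (control), a vector for overexpression of hsa-miR-26a-2 (miR-26a), and a vector for a miR-26 sponge, an RNA that offers decoy sites to the miR-26 family. The design text describes 2 independent experiments on separately generated cell clones, so the spread between the 2 arrays of a group holds the difference between clones. All values come from 1 line in bulk RNA, where fewer cells that express a gene and less RNA per cell cannot be told apart.

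TGF-beta, activins and bone morphogenetic proteins (BMPs) signal through paired type II and type I receptor kinases. The type I receptor phosphorylates receptor-regulated SMADs, SMAD2 and SMAD3 after TGF-beta or activin and SMAD1 and SMAD5 after BMP, which join the common partner SMAD4 and act as transcription factors in the nucleus. SMAD6 and SMAD7 are inhibitory SMADs that their own pathway induces, and in B lineage cells TGF-beta is known, among other roles, as an inhibitor of growth.

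The mature miR-26 sequences are shown because their seed pairs with target transcripts. The overexpressed miRNA carries this seed, and the sponge offers sites that pair with the miRNAs. The sequences are those of mouse from RefSeq on build GRCm38.p6, with the seed (bases 2 to 8) in capitals. The family member miR-26a-5p is encoded on chromosome 9 (chr9:119031811-119031832, plus strand) and chromosome 10 (chr10:126995543-126995564, plus strand), and miR-26b-5p on chromosome 1 (chr1:74394324-74394344, plus strand).
mmu-miR-26a-5p: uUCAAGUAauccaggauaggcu
mmu-miR-26b-5p: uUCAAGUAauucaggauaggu
Both share the same seed. Outside it miR-26b differs from miR-26a by C11U and C21U, counted from the 5′ end, and it is 1 base shorter (21 against 22 bases).

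The DNA words that pair with this seed are TACTTGA (bases 2 to 8) and ACTTGAA (bases 2 to 7 followed by an A). They were sought in the 60-base array probes, on the strand of the probe as the files give it, and probes that hold both words, which overlap in ACTTGA, were counted once. None of the 18 probes of the SMAD and receptor genes holds either word, against 532 (0.955%) of all 55681 probes and 4 of 115 probes (3.48%) of the other pathway genes, which belong to Crebbp, Klf10, Tab2 and Usp15. A probe covers a small stretch of its transcript, so the search says nothing of the rest of these transcripts. The mature miR-26a itself is not measured by probes of this array.

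Each array held 59305 spots, of which 28823 to 29800 were well above background and none was saturated. Replicates of a group correlated at 0.996 to 0.997 over the tested probes, and precision is limited by having only 2 arrays in each group. Of the 9 pre-B cell markers, all 9 were above background on all 6 arrays. Among the 9 is Blnk (which encodes SLP-65, log2 signal 14.90 to 15.61). The probe of Lat (10.10 to 10.30) was also above background on all 6 arrays. The summed signal of Blnk and Lat was 43432.5 to 50815 in control, 31676 to 35782 in miR-26a and 50578 to 51053 in sponge arrays, lowest with miR-26a. The sum of the pre-B list overlapped between groups, with 492660 to 531664 in control, 470548 to 503850 in miR-26a and 489776 to 541367 in sponge arrays. Whether the Blnk and Lat probes lie in the deleted parts is not known here, so they do not check the genotype. Of 7 myeloid markers on the array 3 were above background on all 6 arrays, and their summed signal was 3555 to 4610 in control, 3821 to 4554 in miR-26a and 2956 to 4413 in sponge arrays. Of 6 T cell markers 2 were above background on all arrays and 2 on none (Cd3g and Cd8a), and the summed signal of the list was 1388 to 1415 in control, 1302 to 1444 in miR-26a and 1072 to 1210 in sponge arrays. Of 6 stromal markers only Col1a2 was above background on all arrays and the other 5 were on none, with sums of 35.3 to 37.1 in control, 31.1 to 32.9 in miR-26a and 33.3 to 44.6 in sponge arrays. The part of these markers in the results was not tested.

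miR-26a–expressing cells had less Smad3 transcript than control cells (fell by 35.0%) and more Smad5 (28.1% and 37.1% higher by its 2 probes) and Tgfbr1 (25.7% higher). These 4 of 10 tested probes passed limma's test, with the experiment as a block, at a Benjamini-Hochberg adjusted p of 0.05 over all 20168 tested probes. In the same comparison 1944 of the 20168 probes passed (9.64%), of which 1036 were lower (5.14%) and 908 higher (4.5%). Without the block 1 of the 4 calls, that of Smad3, remained, and over all tested probes 238 were lower and 73 higher. The median log2 change was 0.03 over the 10 probes and 0.01 over all tested probes. Smad2, Smad4, Smad7 and Tgfbr2 did not pass. The values below are log2 quantile-normalized signals, and a change is the difference of such values.

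**Figure D1:**
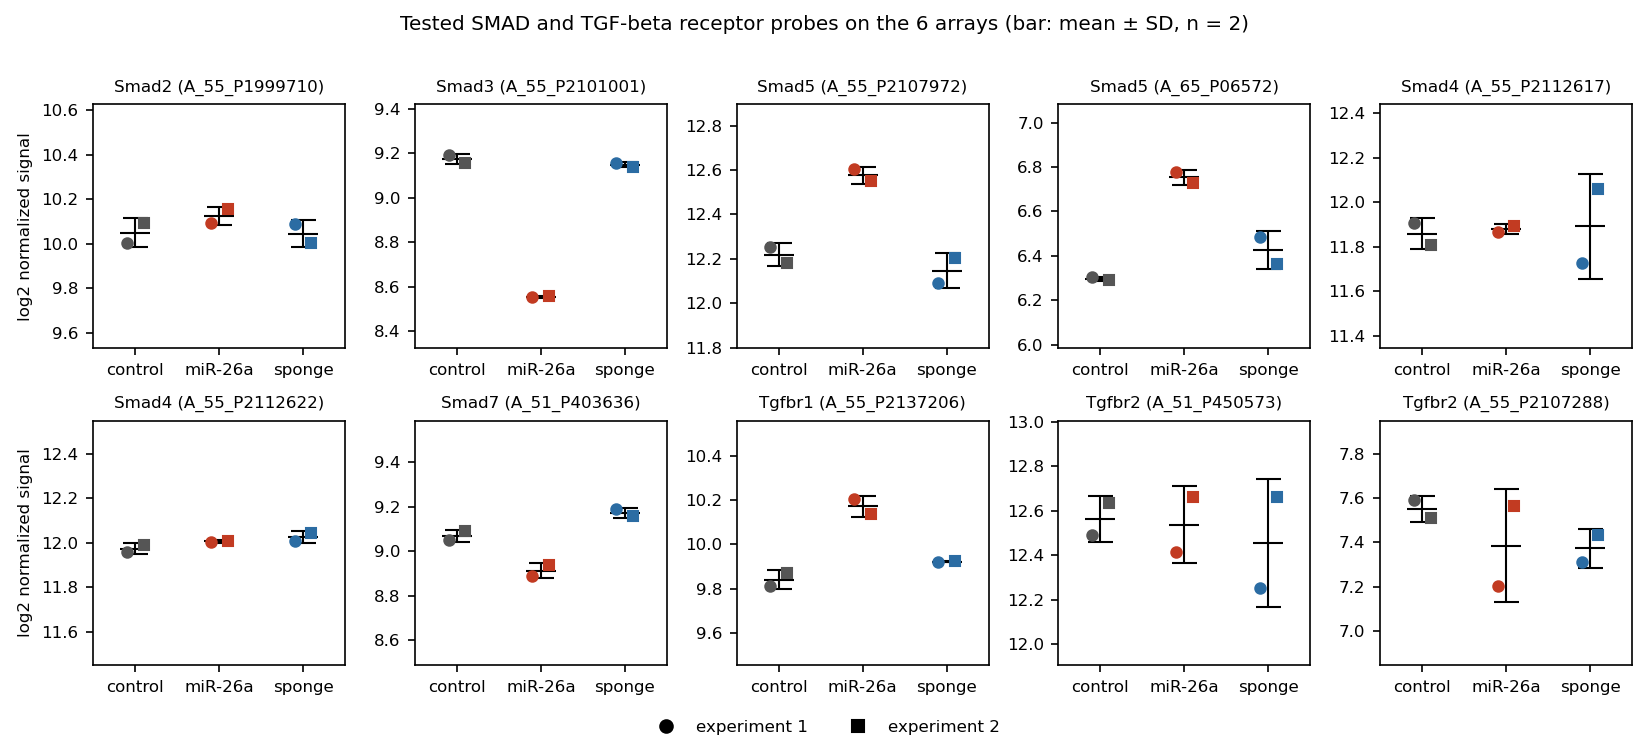
Log2 normalized signal (y axis) of each of the 10 tested probes in control, miR-26a and sponge cells (x axis). Each point is 1 array, circles are experiment 1 and squares experiment 2, and bars are mean ± SD of 2 arrays; every panel spans the same number of log2 units. The miR-26a arrays lie below both other groups for Smad3 (8.55 and 8.56) and above them for both Smad5 probes and for Tgfbr1 A_55_P2137206.

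SMAD3 is one of the receptor-regulated SMADs of TGF-beta and activin and binds DNA directly. The probe A_55_P2101001 (mm9 chr9:63494574-63494633, in Smad3 by the array design) read 9.19 and 9.16 in the control arrays, 8.55 and 8.56 in the miR-26a arrays and 9.16 and 9.14 in the sponge arrays. Both miR-26a arrays lay well below the other 4, which were within a narrow band. The change against control was −0.62 (SE 0.07, 95% interval −0.78 to −0.46), with −0.64 in experiment 1 and −0.60 in experiment 2, and limma's adjusted p was 0.00856. Leaving out single arrays kept the change between −0.64 and −0.61, but the call was lost without control replicate 1 (−0.61, limma adjusted p 0.0923) and without control replicate 2 (−0.63, adjusted p 0.0884). Over the 16 other settings the adjusted p ran from 0.00228 to 0.392, and 11 of them kept the call. The fall rests on this 1 probe: the other Smad3 probe, A_51_P441022 (chr9:63497492-63497551), was above background on no array and gives no level.

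SMAD2, the partner of SMAD3 downstream of the same receptors, has 1 probe (A_55_P1999710, chromosome 18). It read 10.00 and 10.10 in control, 10.10 and 10.15 in miR-26a and 10.09 and 10.00 in sponge arrays. All 6 arrays lay close together, and the change of 0.08 between miR-26a and control (95% interval −0.11 to 0.27, limma adjusted p 0.588) was not called.

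SMAD5 transmits BMP signals. Its brighter probe A_55_P2107972 (mm9 chr13:56843578-56843637) read 12.25 and 12.18 in control, 12.60 and 12.55 in miR-26a and 12.09 and 12.20 in sponge arrays. The second probe A_65_P06572 (chr13:56838912-56838971) read 6.30 and 6.29 in control, 6.78 and 6.73 in miR-26a and 6.49 and 6.37 in sponge arrays. On both, the miR-26a arrays were the highest of all 6. The change against control was 0.36 (SE 0.08, 95% interval 0.16 to 0.55, limma adjusted p 0.0486) for A_55_P2107972 and 0.46 (SE 0.07, 0.28 to 0.63, adjusted p 0.0198) for A_65_P06572. By experiment the changes were 0.35 and 0.37 for the first and 0.47 and 0.44 for the second. Both probes read transcripts of 1 gene and are not independent evidence of each other.

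The direction of both Smad5 probes held under each alternative run, but the calls did not. With the authors' processed values A_55_P2107972 was not called (0.35, limma adjusted p 0.0526), nor with the signal limit applied to 2 arrays (0.0578). The authors' values gave 3 calls among the 10 tested probes, with 1043 lower and 926 higher over all tested probes. A_55_P2107972 lost its call when any single array was left out, with changes of 0.31 to 0.41 and adjusted p of 0.0614 to 0.306, and without the block (adjusted p 0.11); 4 of its 16 other settings kept the call, over a range of adjusted p of 0.0229 to 0.388. A_65_P06572 lost it without control replicate 1 (adjusted p 0.183), control replicate 2 (0.139) or miR-26a replicate 2 (0.0575) and without the block (0.0663), and 9 of 16 settings kept it (0.013 to 0.398). With the tested probes of each gene averaged, limma gave Smad5 a change of 0.41 (adjusted p 0.0197).

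SMAD1, the other BMP-regulated SMAD here, was measured by 3 probes on chromosome 8. None of the 3 was well above background on any array. The arrays therefore give no level of Smad1 and no difference between the groups.

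SMAD4 is the common partner of both branches. Probe A_55_P2112617 read 11.91 and 11.81 in control, 11.87 and 11.89 in miR-26a and 11.73 and 12.06 in sponge arrays, and A_55_P2112622 read 11.96 and 11.99, 12.00 and 12.01, and 12.01 and 12.04 in the same order. The second probe varied little over all 6 arrays, and the first varied most between the 2 sponge arrays. The changes against control were 0.02 (95% interval −0.26 to 0.31, limma adjusted p 0.935) and 0.03 (−0.13 to 0.20, adjusted p 0.808), and neither was called.

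SMAD7, an inhibitory SMAD that recruits ubiquitin ligases to the type I receptor, read 9.05 and 9.09 in control, 8.89 and 8.94 in miR-26a and 9.19 and 9.16 in sponge arrays (probe A_51_P403636). The miR-26a arrays were the lowest and the sponge arrays the highest of the 6, with no overlap between groups. The change between miR-26a and control was −0.16 (95% interval −0.33 to 0.01, limma adjusted p 0.211), with −0.16 in experiment 1 and −0.15 in experiment 2, and was not called. Groups that do not overlap are common here: 22.9% of all tested probes were lower and 26.5% higher on both miR-26a arrays than on both control arrays. Among the 10 probes this held for 2 lower (Smad3, Smad7) and 5 higher (Smad2, Smad4 A_55_P2112622, both of Smad5, Tgfbr1). The only probe of SMAD6, the other inhibitory SMAD, was well above background on none of the 6 arrays.

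TGFBR1 is the type I receptor kinase of TGF-beta. Its probe A_55_P2137206 (mm9 chr4:47427736-47427795) read 9.81 and 9.87 in control, 10.20 and 10.14 in miR-26a and 9.92 and 9.92 in sponge arrays. The miR-26a arrays were the highest. The change against control was 0.33 (SE 0.07, 95% interval 0.16 to 0.51, limma adjusted p 0.0453), with 0.39 in experiment 1 and 0.27 in experiment 2. The call was lost when any single array was left out (changes of 0.28 to 0.38, adjusted p 0.0787 to 0.312) and without the block (0.109); 5 of 16 other settings kept it, over adjusted p of 0.0326 to 0.452.

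Of the 3 other Tgfbr1 probes none was tested. A_55_P2137211 (chr4:47424946-47425005) was above background on all arrays but under the signal limit of 50, and read 5.13 and 5.18 in control, 5.55 and 5.64 in miR-26a and 5.08 and 5.48 in sponge arrays. It was likewise highest on the miR-26a arrays, and in the fit without the filter its change was 0.44 (SE 0.12, limma adjusted p 0.384), which did not pass. A_55_P1960901 was above background on 2 arrays (1 miR-26a, 1 sponge) and A_55_P1960906 on none.

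TGFBR2 is the type II receptor that binds TGF-beta and activates TGFBR1. Probe A_51_P450573 (mm9 chr9:115997155-115997214) read 12.49 and 12.63 in control, 12.41 and 12.66 in miR-26a and 12.25 and 12.66 in sponge arrays. Probe A_55_P2107288 (chr9:115999496-115999555) read 7.59 and 7.51, 7.21 and 7.56, and 7.31 and 7.43 in the same order. The groups overlapped on both probes between miR-26a and control. The changes were −0.02 (95% interval −0.24 to 0.19, limma adjusted p 0.895) and −0.17 (−0.45 to 0.12, adjusted p 0.414). On the second probe experiment 1 gave −0.39 and experiment 2 gave 0.05, so the experiments did not share a direction.

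**Figure D2:**
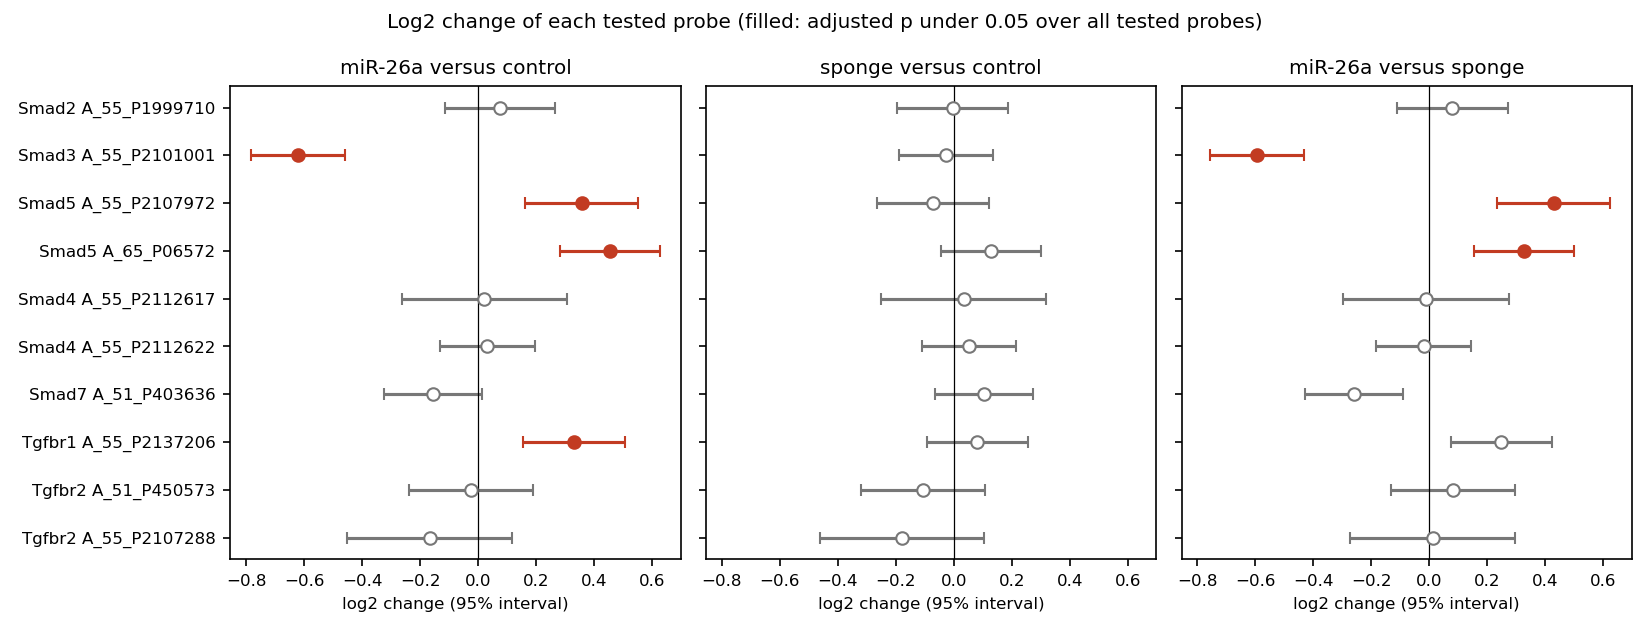
Log2 change (x axis) of each tested probe with its 95% interval from limma, for miR-26a versus control, sponge versus control and miR-26a versus sponge; filled red points have an adjusted p under 0.05 over all tested probes. Smad3, both Smad5 probes and Tgfbr1 are filled in the first panel, none in the second, and Smad3 and both Smad5 probes in the third; the panels share arrays.

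Sequestration of miR-26 by the sponge left no SMAD or receptor probe past the test. None of the 10 probes was called by limma, 0 had an unadjusted p under 0.05, and no other setting called any. The background is low as well: 2 of 20168 probes passed (0.00992%), and 3247 (16.1%) had an unadjusted p under 0.05. The changes ran from −0.18 for Tgfbr2 A_55_P2107288 (95% interval −0.46 to 0.11, limma adjusted p 0.477) to 0.13 for Smad5 A_65_P06572 (−0.04 to 0.30, adjusted p 0.41). The first of these was −0.02 without control replicate 1 and −0.34 without control replicate 2.

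Smad3 changed by −0.03 in sponge cells (95% interval −0.19 to 0.14, limma adjusted p 0.864), so a rise of the size of its fall with miR-26a lies outside the interval. Smad5 A_55_P2107972 changed by −0.07 (−0.27 to 0.12, adjusted p 0.672) and Tgfbr1 by 0.08 (−0.09 to 0.26, adjusted p 0.591). Smad7, the inhibitory SMAD, was at 0.10 (−0.06 to 0.27, adjusted p 0.483), higher in both experiments (0.14 and 0.07). The sponge arrays lay outside the control arrays for 2 lower probes (Smad3, Tgfbr2 A_55_P2107288) and 4 higher (Smad4 A_55_P2112622, Smad5 A_65_P06572, Smad7, Tgfbr1), against 20.4% and 17.3% of all tested probes. Beside these values stands the T cell marker sum, lower on both sponge arrays than on the others.

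Set directly against each other, miR-26a and sponge cells differed in Smad3 and Smad5. Of the 10 probes 3 were called (1 lower, 2 higher), against 3381 of 20168 (16.8%, with 8.49% lower and 8.28% higher). Smad3 was lower with miR-26a by −0.59 (SE 0.07, 95% interval −0.76 to −0.43, limma adjusted p 0.00659), and the 2 Smad5 probes were higher by 0.43 (0.23 to 0.62, adjusted p 0.0224) and 0.33 (0.15 to 0.50, adjusted p 0.0328). The Smad3 call was lost without sponge replicate 1 (adjusted p 0.0608) or sponge replicate 2 (0.0594), with a range of 0.00223 to 0.433 over its 16 other settings. The call of Smad5 A_65_P06572 was lost when any single array was left out (adjusted p 0.0789 to 0.134) without the block (0.0855), with normexp background correction (0.19, adjusted p 0.1) and with array weights (0.0532), and that of A_55_P2107972 when any array but miR-26a replicate 2 was (0.0521 to 0.113). Over all settings these p ran from 0.0328 to 0.442 and from 0.00702 to 0.465. Smad7 (−0.26, 95% interval −0.43 to −0.09, adjusted p 0.0542) and Tgfbr1 (0.25, 0.07 to 0.42, adjusted p 0.0672) did not pass. In the fit with the probes of each gene averaged Smad7 did (−0.26, limma adjusted p 0.0452). Smad7 has 1 probe, so its change was the same there, and the fit and adjustment were over 14879 gene names. This comparison, miR-26a versus control and sponge versus control share arrays pairwise, so they are not independent of each other.

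**Figure D3:**
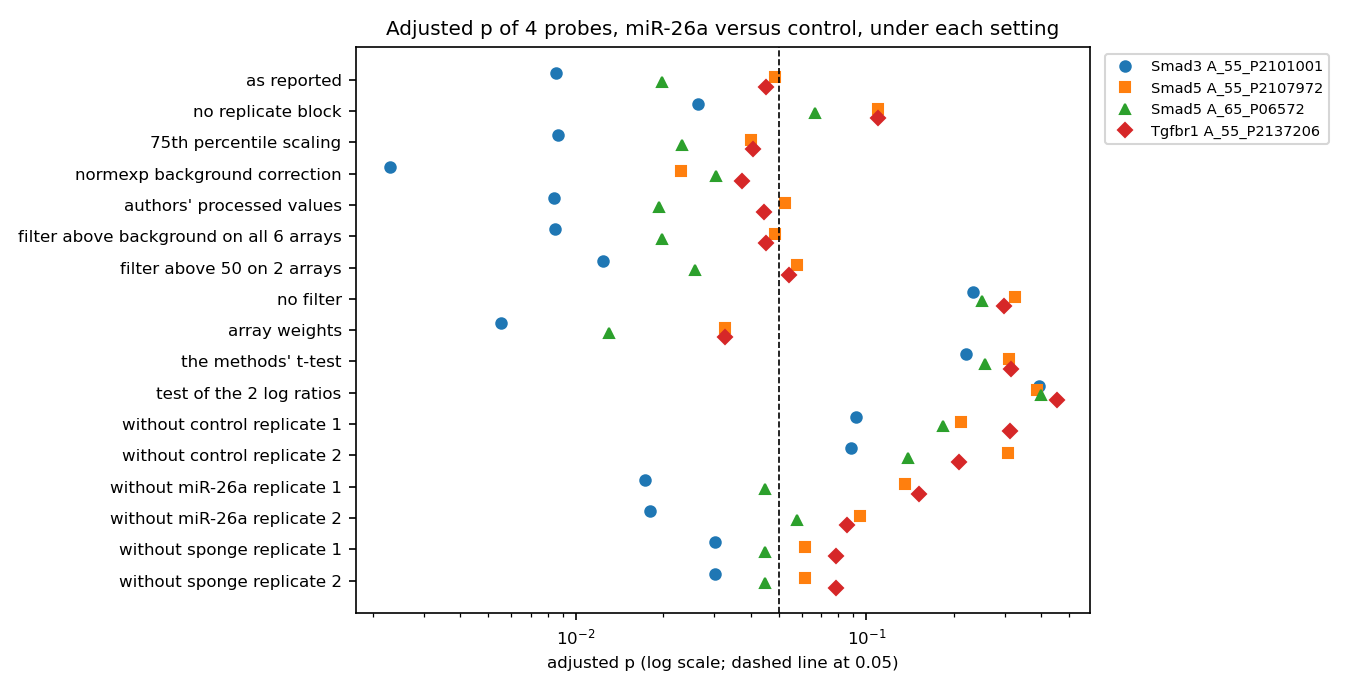
Limma adjusted p (x axis, log scale) of the 4 probes called in miR-26a versus control under each processing setting (rows). The dashed line is at 0.05. The 2 rows of other tests show their own adjusted p. The row named the methods' t-test is an unpaired t-test, and the methods name no test for the arrays. Smad3 A_55_P2101001 passes under 11 of the 16 alternatives, Smad5 A_65_P06572 under 9, Tgfbr1 A_55_P2137206 under 5 and Smad5 A_55_P2107972 under 4.

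The rest of the pathway was read from a list of 77 other genes of TGF-beta, activin and BMP signaling, of which 42 had a tested probe (60 of 115 probes). In miR-26a against control cells 5 probes fell and 3 rose by limma's adjusted p, 13.3% of the 60 against 9.64% of all tested probes, and their median log2 change was −0.02. In sponge cells none of the 60 was called, against 2 of all 20168 tested probes (0.00992%). By limma's unadjusted p under 0.05 it was 17 of the 60, against 3247 of all tested probes (16.1%). The count of the 60 with miR-26a was 2 without the block, where 238 of all tested probes were lower and 73 higher. It fell when any single array was left out, most without a control array. So did the count over all tested probes. Without the block Bhlhe40 (limma adjusted p 0.0436) and Ctdsp2 A_55_P2088331 (0.0327) kept their calls, while Id2 (0.0664), Acvr1 (A_55_P2159710 0.0789, A_55_P2102693 0.103), Pmepa1 A_55_P1959174 (0.122) and Ltbp4 (A_51_P403536 0.238, A_55_P2033500 0.29) did not. Bhlhe40, Ctdsp2 A_55_P2088331 and Id2 also kept them without any one of the miR-26a or sponge arrays, with adjusted p up to 0.0889, 0.0999 and 0.104 without a control array. Ltbp4 A_51_P403536 kept its call without either sponge array (adjusted p up to 0.208 over the arrays left out). Ltbp4 A_55_P2033500 (up to 0.239), Pmepa1 A_55_P1959174 (up to 0.211) and Acvr1 A_55_P2159710 (up to 0.2) kept it on leaving out miR-26a replicate 1 and no other array, and Acvr1 A_55_P2102693 lost it whichever array was left out (0.0689 to 0.284).

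Of 13 ligand genes only 2, Tgfb1 and Bmp4, had a tested probe. Tgfb1, the ligand of the receptors above, read 11.87 and 12.00 in control, 11.60 and 11.66 in miR-26a and 11.44 and 11.81 in sponge arrays. Its changes of −0.31 with miR-26a (limma adjusted p 0.105) and −0.31 with the sponge (adjusted p 0.246) were not called, nor was Bmp4 (0.06 and −0.33, adjusted p 0.775 and 0.274). Of the genes for ligand activation and binding, Ltbp4, which encodes a protein that tethers latent TGF-beta in the matrix, rose on both of its tested probes with miR-26a. A_51_P403536 read 10.77 and 10.97 in control, 11.19 and 11.40 in miR-26a and 10.52 and 10.85 in sponge arrays (change 0.42, adjusted p 0.0263), and A_55_P2033500 changed by 0.41 (adjusted p 0.0322). In sponge cells these probes were at −0.19 and −0.18, with adjusted p of 0.302 and 0.33, and Ltbp3 was at −0.31 (adjusted p 0.416). Another Ltbp4 probe, A_55_P2033507, was above background on all 6 arrays but too dim to be tested, and read 4.98 and 4.94 in control, 5.37 and 5.75 in miR-26a and 4.86 and 5.20 in sponge arrays.

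Acvr1, a type I receptor for BMPs and activin, fell on both of its tested probes in miR-26a cells; another, A_55_P2159705, was above background on no array. A_55_P2159710 read 9.54 and 9.52 in control, 9.17 and 9.05 in miR-26a and 9.81 and 9.78 in sponge arrays, and A_55_P2102693 read 7.65 and 7.57, 7.27 and 7.26, and 7.88 and 7.87. The miR-26a arrays were lowest and the sponge arrays highest on each. The miR-26a changes were −0.42 and −0.34 (limma adjusted p 0.0247 and 0.0389), and the sponge changes, 0.27 on each, were not called (adjusted p 0.227 and 0.226). The other 4 tested receptor probes were not called in either comparison.

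Of the adaptors and regulators, 14 of 15 genes had 24 tested probes. Ctdsp2, a phosphatase that removes phosphate from SMAD linkers and other nuclear proteins, fell on probe A_55_P2088331, which read 9.80 and 9.67 in control, 8.96 and 9.10 in miR-26a and 9.61 and 9.65 in sponge arrays (change −0.71, limma adjusted p 0.0114). Its 2 other tested probes, A_52_P432685 and A_55_P2088325, were at −0.33 (adjusted p 0.0528) and −0.09 (0.452), so the probes of this gene disagree in size. Pmepa1, a TGF-beta-induced inhibitor of SMAD signaling, fell on A_55_P1959174 (6.42 and 6.28 in control, 6.02 and 5.75 in miR-26a, 6.48 and 6.48 in sponge arrays, change −0.46, adjusted p 0.0333), and its other probe was at −0.37 (adjusted p 0.121). The largest sponge changes of these regulators, Fkbp1a A_55_P2021921 at −0.54 (adjusted p 0.224) and Smurf1 at −0.52 (adjusted p 0.221), were not called. The other 2 tested Fkbp1a probes were at −0.37 and 0.06, so they did not share a direction.

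Among genes known to respond to SMADs, 6 of 13 had a tested probe, and the 2 that passed moved apart. The repressor gene Bhlhe40 read 8.19 and 8.16 in control, 7.30 and 7.41 in miR-26a and 8.13 and 8.44 in sponge arrays, a change of −0.82 (limma adjusted p 0.0106) with miR-26a. Id2, an inhibitor of E-protein transcription factors that BMP signals induce, read 9.46 and 9.51 in control, 10.14 and 10.60 in miR-26a and 9.61 and 9.74 in sponge arrays, a change of 0.88 (adjusted p 0.0133). Both genes answer to other pathways as well. The related gene Id3 was at −0.09 with miR-26a (limma adjusted p 0.455) and was not called. The Id1 probe was above background on all 6 arrays but too dim to be tested. It read 4.59 and 4.23 in control, 3.80 and 4.03 in miR-26a and 5.01 and 5.05 in sponge arrays. The Id genes thus did not share a direction with miR-26a. In sponge cells the largest changes of the SMAD-responsive genes were Id3 at −0.27 (adjusted p 0.225) and Junb at −0.27 (adjusted p 0.304), neither called.

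No nuclear co-factor probe (8 tested, 6 of 8 genes) and no probe of the non-SMAD branch (9 tested, 5 of 5 genes) was called with miR-26a. The largest changes were Tgif2 at 0.29 (limma adjusted p 0.0644) and Skil at −0.24 (0.0845) among co-factors, and Map3k7, the TGF-beta-activated kinase, at 0.27 (0.092) and 0.19 (0.157) on 2 probes and 0.05 (0.685) on the other. In sponge cells Crebbp was at −0.33 (adjusted p 0.22) on A_55_P1965836 and −0.08 (0.621) on its other tested probe, and Tgif2 at 0.19 (0.297). The 3 Map3k7 probes were at 0.16 (0.372), 0.14 (0.374) and −0.14 (0.395) and did not share a direction. The remaining receptor-regulated SMAD, Smad9, had no tested probe.

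In miR-26a against sponge cells 17 of the 60 probes were called, 10 lower and 7 higher (28.3% against 16.8% of all tested probes); this count was added after the data were seen. Acvr1 (−0.69 and −0.61, limma adjusted p 0.00519 and 0.00678), Bhlhe40 (−0.93, 0.00546), Ctdsp2 A_55_P2088331 (−0.60, 0.0127) and Pmepa1 (−0.68 and −0.59, 0.0216 and 0.0134) were lower with miR-26a, as were Usp15, Skil A_51_P118132 and both called probes of Strap. Smurf1, a ubiquitin ligase for SMADs and receptors, was higher by 0.95 (0.00795), as were Ltbp4 (0.61 and 0.59, 0.00798 and 0.0099), Id2 (0.70, 0.0172), Smurf2 A_52_P472660, Crebbp A_55_P1965836 and Junb. The count was 7 without the block, and calls over all tested probes fell from 1712 lower and 1669 higher to 632 and 365. The count of the 60 also fell when any array was left out, most without a sponge array. So did the count over all tested probes.

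**Figure D4:**
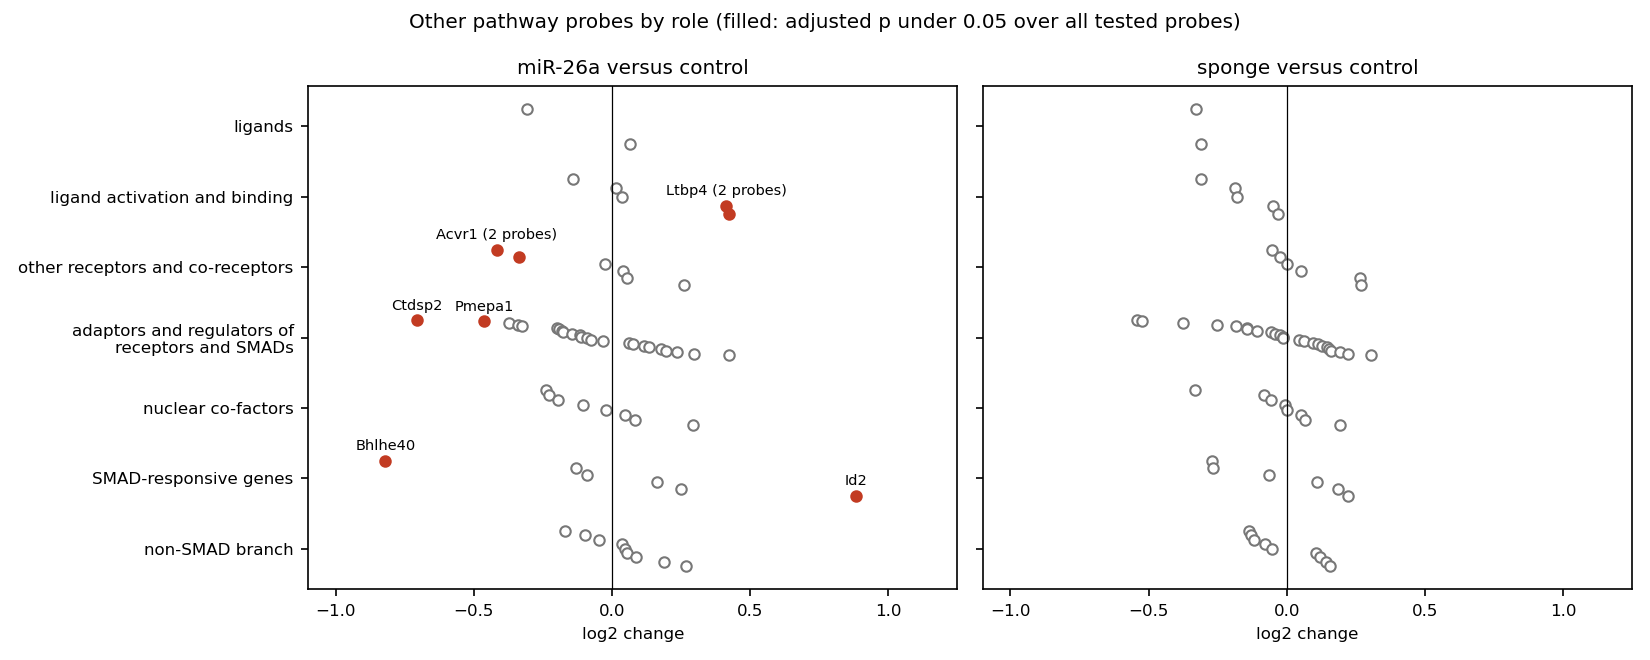
Log2 change (x axis) of each of the 60 tested probes of the other pathway genes, grouped by role (y axis), for miR-26a versus control and sponge versus control; points within a role are spread vertically in order of value, and filled red points have a limma adjusted p under 0.05 over all tested probes. The 8 filled points belong to Ltbp4, Acvr1, Ctdsp2, Pmepa1, Bhlhe40 and Id2, and the sponge panel has none.

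The patterns of the called genes over the 6 arrays, after removal of the mean of each experiment, were shared by many probes of the array. For Smad3 A_55_P2101001 the annotated genes with the highest Pearson correlation were 1810020D17Rik, Gm16515 and Kif21b, and 899 of 15387 annotated probes (5.84%) correlated above 0.95. For Smad5 A_65_P06572 they were Tmem181a, Ints8 and Pkn2, with 669 probes (4.35%) above 0.95. For Tgfbr1 A_55_P2137206 they were 2410127L17Rik, Snx18 and Mcm3, with 495 probes (3.22%). These correlations are over 6 arrays that share the group contrast and 1 slide, and are given as a description.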

How the data were processed

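RNA of 6 samples was hybridized to single-colour Agilent arrays, all on 1 slide and scanned on 1 day. The authors deposited scanner files, made per the processing notes with Agilent Feature Extraction 10.7.1.1, with a background-subtracted intensity for every spot (the processed signal), and their own table of linear quantile-normalized intensity values. Control spots were left out. Quantile normalization of the other signals and log2 transformation came first, then the mean over spots of a probe. Outlier-flagged spots were left out of that mean, unless every spot of the probe on that array was flagged. A probe was tested (20168) if its signal exceeded 50 on at least 4 arrays and was well above background on 1 or more; the methods state the number of arrays unclearly. limma 3.58.1 (R 4.3.3) was fitted to all 6 arrays with experiment as a block, with Benjamini-Hochberg adjustment. The block follows the replicate numbers of the labels and the methods, which normalize to the control of each experiment. Same-numbered arrays deviated together (correlations of 0.379, 0.588 and 0.454 over probes). The array design supplied gene names and mm9 coordinates. Pathway genes were named where called, or else by the 2 largest changes of a role. Alternatives were no block, 75th percentile scaling, normexp with an offset of 50, the authors' values, 3 other filters and array weights. Further ones were probes averaged per gene, an unpaired t-test, a test of the log ratios and leaving out each array. The unpaired t-test is called the methods' t-test here, although the methods name no test for the arrays. Its values were not normalized to the control of each experiment, and its p was adjusted by Benjamini-Hochberg. Tested on simulated data, the fit made more false calls than its adjusted p threshold aims at. The genes and lists were chosen with earlier results of these data known. Tables and plots used numpy 2.4.6, pandas 2.3.3 and matplotlib 3.10.9.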

Additional observations from a re-analysis of the deposited data

How the results depend on the processing

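With 2 arrays per group, calls moved with the processing more than changes did. Over all tested probes, 1036 lower and 908 higher calls against control with miR-26a became 238 and 73 with no replicate block. With the signal limit applied to 2 arrays they were 965 and 801. Against the sponge, 1712 and 1669 became 632 and 365 with no block. With no filter, the unpaired t-test that is called the methods' t-test here, or the log ratios, no probe passed the Benjamini-Hochberg adjustment in any comparison. The methods name no test for the arrays and state no adjustment, so these counts are not those of the study's own cutoffs. Leaving out any array lowered both array-wide counts with miR-26a. For miR-26a versus control the 4 probes called became 1 with no replicate block, 2 with the signal limit applied to 2 arrays, and 0 with no filter, with the methods' t-test (5 at an unadjusted p under 0.05) and with the test of the 2 log ratios (4 unadjusted); leaving out each array gave 0 to 2. For miR-26a versus sponge the 3 calls became 0 with no filter, with the methods' t-test and with the log ratios, and leaving out each array gave 0 to 2; with no replicate block it was 2. Which of the probes called in the comparisons with control lost their call without the block is given in the report. For the other pathway probes the 8 calls became 2 with no replicate block, 0 with no filter, with the methods' t-test and with the log ratios, and 0 to 6 when each array was left out. The sponge counts were 0 under every setting. The cause of these shifts was not tested, except that without a filter more probes enter the adjustment and that fewer arrays leave fewer degrees of freedom.

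No called change reversed. Changes near 0 that were not called did: Smad4 A_55_P2112617 was at −0.00451 with normexp (miR-26a versus control), Smad2 in sponge versus control was at 0.0369 with 75th percentile scaling, 0.0219 with normexp and 0.00132 with the authors' values, and Tgfbr2 A_55_P2107288 in miR-26a versus sponge was at −0.0234 with normexp. Leaving out each array gave, for miR-26a versus control, −0.12 to 0.16 for Smad4 A_55_P2112617, −0.12 to 0.0655 for Tgfbr2 A_51_P450573 and −0.34 to 0.00233 for Tgfbr2 A_55_P2107288. For sponge versus control it gave −0.0840 to 0.0770 for Smad2, −0.15 to 0.22 for Smad4 A_55_P2112617, −0.16 to 0.0155 for Smad5 A_55_P2107972 and −0.21 to 9.17e-05 for Tgfbr2 A_51_P450573. For miR-26a versus sponge it gave −0.0014 to 0.16 for Smad2, −0.20 to 0.17 for Smad4 A_55_P2112617, −0.0250 to 0.19 for Tgfbr2 A_51_P450573 and −0.16 to 0.18 for Tgfbr2 A_55_P2107288. With normexp in miR-26a versus sponge, Tgfbr1 passed (0.28, limma adjusted p 0.0441) and Smad5 A_65_P06572 no longer did (0.19, adjusted p 0.1). Of the spots on each array, 29.6% to 33.6% held a floor value set by the scanner software, so Smad1, Smad6 and other dim probes have no measured change.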
